A study of Mus musculus with 6 samples.

Results

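The genes described here encode the machinery that fuses vesicles with membranes and the scaffolds that organize synapses: synaptotagmins, syntaxins, the SNAP25 family, Vamps, syntaxin-binding proteins, complexins, RIM, Munc13, Bassoon and Piccolo proteins, synapsins, otoferlin and the Shank and Dlgap scaffolds. They were chosen by symbol among the protein-coding genes, and 77 of the 28262 listed genes met that rule. RNA was sequenced from Sertoli cells, the somatic nurse cells of the seminiferous tubule, isolated from 20-day-old C57BL/6 mice and kept without treatment at 34 °C. The 3 control libraries carried floxed Pa1 alleles and no deletion (Pa1F/F), and in the 3 knockout libraries (Amh-pa1-/-) the same floxed alleles were deleted by a Cre recombinase under the Amh promoter, which is active in Sertoli cells. PA1 is a subunit of a histone methyltransferase complex. Pa1 itself was not analysed here, so the genotypes rest on the labels. The sources used here do not say how many animals stand behind a library, so the p-values measure the spread between these libraries.

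Fusion runs through a core of SNARE proteins. A Vamp on the vesicle pairs with a syntaxin and a SNAP25-type protein on the target membrane, Munc18-type proteins bind the syntaxin, Munc13 and RIM proteins prepare vesicles for fusion, and many synaptotagmins act as calcium sensors. Some members serve the traffic of every cell, such as Snap23, Stx12 or Vamp3, while others are best known from neurons, such as Bsn or Syn1. Sertoli cells use vesicle traffic to move junction proteins and to secrete fluid and proteins into the tubule.

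Promoters are shown for 5 members that differed between the genotypes, with the letters of the searched motifs in capitals. Syn1 and Snph, the synapsin that coats synaptic vesicles and the syntaphilin that anchors axonal mitochondria, were lower in the knockout, and Syt1, the calcium sensor of fast transmitter release, was higher. Vamp5 and Vamp8 are neighbours that were both lower, each by less than 2-fold. The windows run from 250 bases before to 50 bases after the start in RefSeq on GRCm38.p6, all on the minus strand and written 5′ to 3′ along the gene: chrX:20920869-20921168 for Syn1, chr2:151632544-151632843 for Snph, chr10:109010926-109011225 for Syt1, chr6:72380419-72380718 for Vamp5 and chr6:72390618-72390917 for Vamp8.
Syn1: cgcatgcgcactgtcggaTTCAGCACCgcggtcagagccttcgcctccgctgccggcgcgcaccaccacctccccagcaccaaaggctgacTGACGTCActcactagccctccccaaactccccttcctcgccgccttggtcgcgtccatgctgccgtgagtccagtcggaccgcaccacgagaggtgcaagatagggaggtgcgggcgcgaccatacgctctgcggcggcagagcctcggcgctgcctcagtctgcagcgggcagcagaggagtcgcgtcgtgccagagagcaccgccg
Snph: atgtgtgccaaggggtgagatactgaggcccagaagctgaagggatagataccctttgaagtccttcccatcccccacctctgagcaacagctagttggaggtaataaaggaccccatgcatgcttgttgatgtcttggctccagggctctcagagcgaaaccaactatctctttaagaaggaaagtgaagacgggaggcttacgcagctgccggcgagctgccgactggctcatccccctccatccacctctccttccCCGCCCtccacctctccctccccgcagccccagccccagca
Syt1: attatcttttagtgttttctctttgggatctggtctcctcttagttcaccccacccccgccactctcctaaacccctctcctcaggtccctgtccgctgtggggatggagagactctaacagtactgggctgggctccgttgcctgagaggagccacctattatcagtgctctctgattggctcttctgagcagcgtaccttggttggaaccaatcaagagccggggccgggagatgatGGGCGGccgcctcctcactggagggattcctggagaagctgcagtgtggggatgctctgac
Vamp5: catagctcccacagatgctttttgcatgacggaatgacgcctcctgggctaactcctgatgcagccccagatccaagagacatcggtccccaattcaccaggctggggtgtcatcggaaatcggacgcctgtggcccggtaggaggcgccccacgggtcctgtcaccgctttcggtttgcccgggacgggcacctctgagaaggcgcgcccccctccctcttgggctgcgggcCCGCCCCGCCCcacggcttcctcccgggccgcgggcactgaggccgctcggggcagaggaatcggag
Vamp8: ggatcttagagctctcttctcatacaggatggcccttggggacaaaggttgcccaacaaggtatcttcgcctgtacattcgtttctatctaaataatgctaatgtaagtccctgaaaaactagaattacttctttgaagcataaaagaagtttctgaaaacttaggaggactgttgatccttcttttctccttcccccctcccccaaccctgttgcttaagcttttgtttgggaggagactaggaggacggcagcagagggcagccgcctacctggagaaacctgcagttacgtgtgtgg

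RefSeq promoters were matched by symbol for 57 of the 77 members. 5 motifs were searched on both strands: TGANTCA (the AP-1 site), TGACGTCA (the cAMP response element), GGGCGG (the GC box), and TTCAGCACC and GGACAGC, the left and right parts of the REST element. The Syn1 window held TTCAGCACC and TGACGTCA, the Snph and Syt1 windows held the GC box once and the Vamp5 window held it in 2 overlapping copies. The Vamp8 window held none of these letters. Syt1 has 2 windows in the table, of which 1 is shown. Among the 56 promoters of tested members, 37 held the GC box (66.1%), against 35.7% of the 32851 promoters in the table. The median GC content was 63.3% over 47 promoters of tested members, 1 for each gene. Over all 32851 promoters, where a gene can have several, it was 52.7%. TTCAGCACC was in 2 of the 56 promoters (3.57%) and in 0.371% of all promoters, and the AP-1 letters were in 1 of 56 (1.79%) against 7.81%. TGACGTCA was in 2 of 56 (3.57%) against 1.79%, and GGACAGC in 4 of 56 (7.14%) against 6.56%. These are matches of letters and not binding data.

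Total counts on genes lay between 13203757 and 16231443 in a library. Genes were tested with edgeR's quasi-likelihood test on the counts, with p-values adjusted by Benjamini-Hochberg over 14919 genes, and a change was called at an adjusted p under 0.05 and a log2 fold change of at least 1 in either direction. Normalized counts were scaled to the mean library. Amh-pa1-/- replicate 3 stood apart from the other two knockout libraries: 5 members differed at least 2-fold there from their mean, and its counts of the smooth muscle gene Myh11 were 1602 against 221 and 146. The defining Sertoli markers Sox9 and Wt1 were counted in every library, from 3166 to 5499 and from 4484 to 6233 counts, and neither passed the test, while Trf and Rhox5 had at most 16 counts in any library. By adjusted p, 4 of the 10 tested Sertoli markers were lower and 1 was higher, among them Gata4 and Inha with log2 fold changes of -0.88 and -1.23 and Dmrt1 with 0.64.

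Of the 77 members, 61 passed the filter on low counts. The other 16 had at most 19 counts in any library: Snap25, Cplx1, Cplx3, Stx19, Dlgap2, Rimbp3, Rims1, Snap91, Syt3, Syt4, Syt5, Syt6, Syt8, Syt10, Syt15 and Syt17. Snap25 and Rims1, central to release at neuronal synapses, were thus nearly uncounted. In the knockout 12 tested members were lower at both thresholds (19.7%), where the background over all tested genes was 6.56%, and 7 were higher (11.5%), where it was 5.44%. By adjusted p alone, 17 were lower (27.9%; background 17.1%) and 15 were higher (24.6%; background 18.2%). The libraries of the genotypes did not overlap for 40 members (65.6%), and for 52.4% of all tested genes. Their median log2 fold change was -0.05, beside 0.00 for all genes (0.046 for the members with no filter on low counts), and their median absolute log2 fold change was 0.53, beside 0.30. With a mean under 100 normalized counts over all libraries, 15 of 19 members were called either way (78.9%, against 20.7% of all tested genes). With a mean of 100 or more, 4 of 42 were called (9.52%, near the 8.32% of all tested genes). The median absolute log2 fold change was 1.655 against 0.518 below that mean, and 0.303 against 0.25 from it upward.

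The counts of called members depended on which libraries entered. Without Amh-pa1-/- replicate 3, 14 members were lower (22.2%, against 7.92% of all genes) and 6 higher (9.52% against 5.6%) at both thresholds, and by adjusted p alone 23 were lower (36.5% against 21.2%) and 15 higher (23.8%, near the 21.9% of all genes). Without Pa1F/F replicate 1 the counts at both thresholds were 7 lower (11.5%, against 5.24% of all genes) and 4 higher (6.56% against 4.41%). They were also 7 (11.1% against 5.31%) and 4 (6.35% against 4.47%) without Pa1F/F replicate 3. Without Amh-pa1-/- replicate 2, 8 were lower (12.9% against 5.37%) and 4 higher (6.45% against 5.0%). With a filter of at least 10 counts in every library, 50 members were tested, 6 of them lower (12.0%, against 5.01% of all genes tested) and 3 higher (6.0% against 4.53%). Low members such as Stxbp5l, Pacsin1, Syt1 and Syn3 had 10 or fewer counts in every library of one genotype and so passed the filter through the other.

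**Figure D1:**
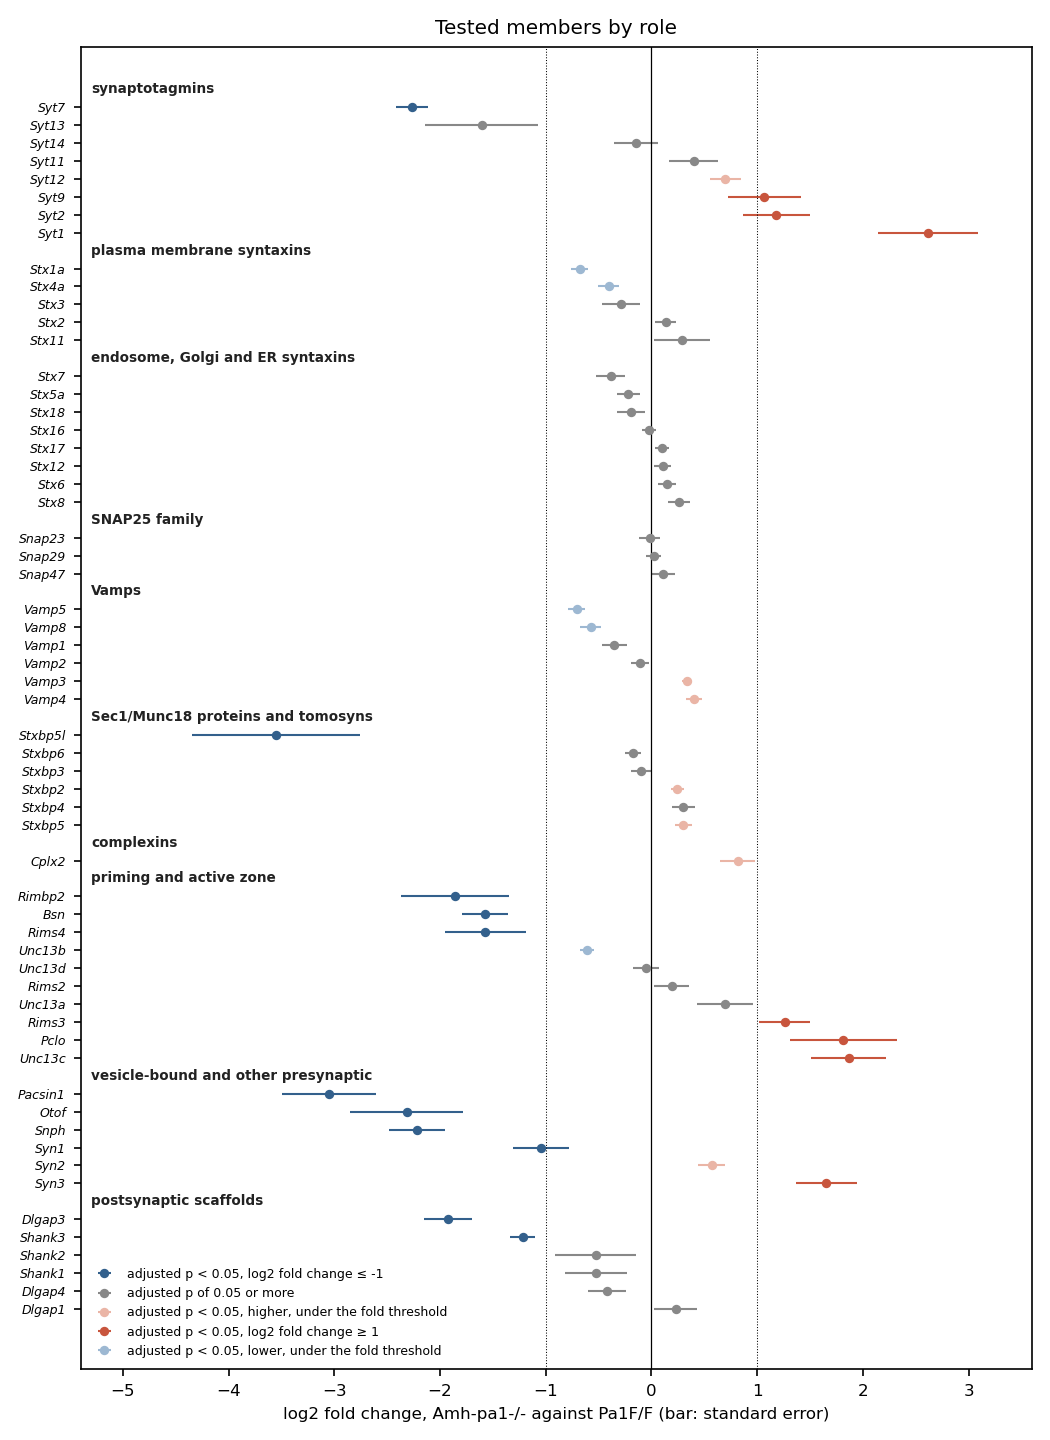
Log2 fold change of 59 of the 61 tested members (Amh-pa1-/- against Pa1F/F, points with 1 standard error) ordered by role. The endosome, Golgi and ER syntaxins and the SNAP25 family stay near 0, from -0.38 to 0.26, while synaptotagmins and vesicle-bound proteins spread to both sides.

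Among the synaptotagmins, 8 of 16 were tested, 1 was lower and 3 were higher at both thresholds (background 6.56% and 5.44% of all tested genes). Syt7 (ENSMUSG00000024743, chr19:10389090-10453181), a slow, high-affinity calcium sensor also found on lysosomes, had 604, 446 and 456 counts in Pa1F/F replicates 1 to 3 and 93, 82 and 119 in Amh-pa1-/- replicates 1 to 3. Every knockout library lay far below every control library. The normalized level went from 486 ± 58.1 to 101 ± 16.0 (SD, n = 3 each), a 4.81-fold lower level with a log2 fold change of -2.27 (SE 0.15, adjusted p 0.000186 by edgeR). Syt7 kept its call under all 14 alternatives, with a log2 fold change between -2.40 and -2.16.

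Syt9, a calcium sensor of hormone and transmitter release and the synaptotagmin with the highest level per length, behaved less evenly. It had 956, 597 and 733 counts in the control libraries and 1940, 1739 and 787 in the knockout libraries. Amh-pa1-/- replicates 1 and 2 were high, but replicate 3 lay within the control range, so the groups overlapped. The log2 fold change was 1.07 (SE 0.34, adjusted p 0.0498), just inside the threshold, and the call was kept in 4 of 14 alternatives. It was lost on leaving out any single library other than Amh-pa1-/- replicate 3, with log2 fold changes from 0.88 to 1.20 and adjusted p from 0.0918 to 0.138, and the highest adjusted p of any alternative was 0.233.

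Syt1 had 4, 1 and 2 counts in the control libraries and 11, 15 and 16 in the knockout libraries. All 6 values were low and the groups did not overlap. The ratio of summed normalized counts was 6.37 with an exact 95% interval of 2.84 to 16.8, which covers counting error only, and the log2 fold change was 2.62 (SE 0.48, adjusted p 0.00666). Syt2, another fast calcium sensor, had 14, 22 and 13 counts and 28, 31 and 46 counts, a log2 fold change of 1.18 (SE 0.32, adjusted p 0.0271). Its locus overlaps Ppp1r12b on the other strand without shared exon bases, and Ppp1r12b, a myosin phosphatase subunit with 1744 to 4704 counts, had a log2 fold change of 1.15. The library kit does not keep the strand of a read, so reads of the introns of one gene and of the other cannot be told apart. Syt2 lost its call in 6 of 14 alternatives, among them without Pa1F/F replicate 1 (adjusted p 0.0956), Pa1F/F replicate 3 (0.0956), Amh-pa1-/- replicate 2 (0.0651) and Amh-pa1-/- replicate 3 (log2 fold change 0.96), and with the 2 most alike libraries of each genotype summed (0.136).

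Syt12, a synaptotagmin that does not bind calcium, was higher under the fold threshold, with 727, 598 and 597 counts against 963, 746 and 1243 (log2 fold change 0.70, adjusted p 0.0117). Syt13 had 31, 21 and 29 counts and then 4, 4 and 17, and its log2 fold change of -1.60 did not pass (adjusted p 0.0554). Syt11 and Syt14 did not pass either. In level per length (CPM per kilobase of merged exon), Syt9 made up 42.5% ± 2.96 of the summed synaptotagmin level in control libraries and 57.8% ± 15.7 in knockout libraries (SD, n = 3). The share of Syt7 was 14.6% ± 0.642 and 2.14% ± 0.843. In Amh-pa1-/- replicate 3 Syt9 held 39.6% and Syt12 38.5%, unlike replicates 1 and 2, where Syt9 held 66.3% and 67.5%.

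**Figure D2:**
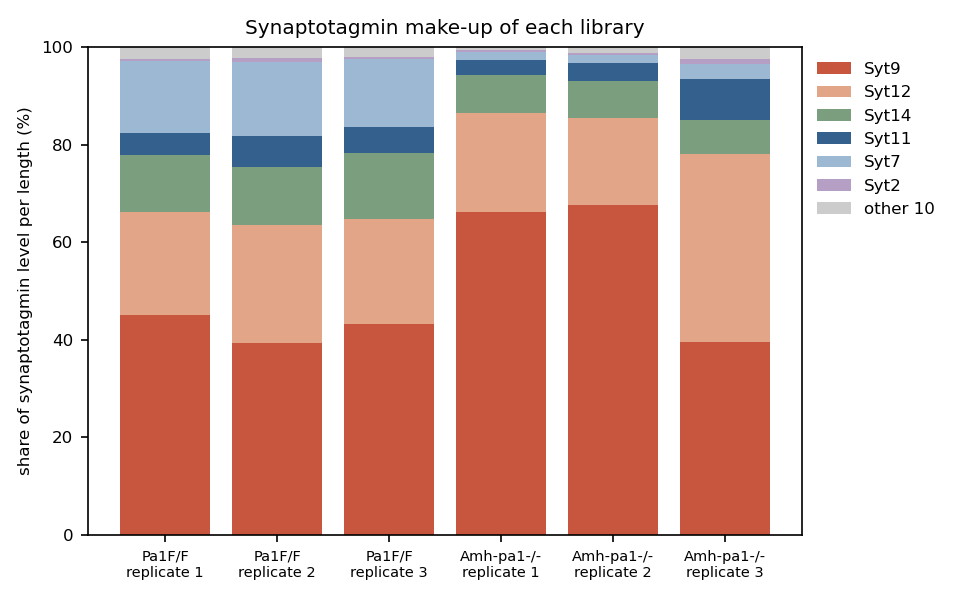
Share of each synaptotagmin in the summed synaptotagmin level per length (percent of CPM per kilobase) in each library. Syt7 holds 13.9 to 15.2% in the control libraries and 1.65 to 3.11% in the knockout libraries, and Amh-pa1-/- replicate 3 has a smaller Syt9 share than the other knockout libraries.

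Syntaxins of the plasma membrane were lower or did not pass. Stx1a, the neuronal and endocrine syntaxin that also works in other secretory cells, had 951, 836 and 761 counts in the control and 525, 495 and 471 in the knockout libraries, without overlap. Its log2 fold change was -0.68 (SE 0.08, adjusted p 0.00156) and was past the adjusted p threshold in all 14 alternatives. Stx4a, the general syntaxin of the plasma membrane and the one with the highest level per length (32.4 ± 3.18 CPM per kilobase in the control), had 1204, 1329 and 1039 counts against 960, 806 and 771, a log2 fold change of -0.41 (SE 0.10, adjusted p 0.0226). It missed the threshold in 3 of 14 alternatives, without Pa1F/F replicate 2 (adjusted p 0.0528), without Amh-pa1-/- replicate 2 (0.0569) and with alike libraries summed (0.111). Stx2, Stx3 and Stx11 did not pass.

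None of the 8 syntaxins of endosomes, Golgi and ER passed the adjusted p in edgeR, in DESeq2's Wald test or in limma-voom. At an unadjusted p under 0.05, edgeR gave 1 lower and 1 higher, DESeq2 1 lower and 0 higher, and limma-voom 1 lower and 1 higher. Stx7, the endosomal syntaxin with the highest control level per length, had 2849, 2515 and 2439 counts against 2196, 1918 and 1499, a log2 fold change of -0.38 (SE 0.14, adjusted p 0.0692). Without Amh-pa1-/- replicate 3, its lowest library, the log2 fold change was -0.23 with an adjusted p of 0.00544. Stx12, which had the highest level per length of the group in the knockout, had a log2 fold change of 0.11 (SE 0.08). The summed level per length of these syntaxins was 91.6 ± 1.45 and 87.6 ± 1.77 CPM per kilobase (SD, n = 3).

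The SNAP25 family was represented by Snap23, Snap29 and Snap47, and none passed in any of the same 3 tools, with 0 at an unadjusted p under 0.05 in each. Snap23, the non-neuronal partner of the plasma membrane syntaxins, had 1493, 1353 and 1245 counts and 1448, 1245 and 1102 counts, with a log2 fold change of -0.02 (SE 0.10). Snap25 had at most 5 counts in a library.

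All 6 Vamps were tested, 2 were lower and 2 were higher by adjusted p alone (background 17.1% and 18.2% of all tested genes). None reached the fold threshold. Vamp5, first described in muscle, had 1352, 1323 and 1070 counts in the control libraries and 815, 653 and 690 in the knockout libraries. Vamp8, the endosomal and secretory granule Vamp, had 1380, 1198 and 1186 counts against 925, 741 and 712. The groups did not overlap for either gene, and the log2 fold changes were -0.71 (SE 0.08, adjusted p 0.0012) and -0.58 (SE 0.09, adjusted p 0.00455). Both lie on the minus strand of chromosome 6, with 4755 bases between their annotated spans. Vamp5 passed adjusted p in all 14 alternatives and Vamp8 in 13.

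Vamp3, the ubiquitous Vamp of recycling endosomes, was higher, with 2226, 2063 and 1827 counts against 2476, 2252 and 2513 (log2 fold change 0.33, adjusted p 0.00295). Its span overlaps that of Camta1 on the same strand, whose log2 fold change was 0.62. Vamp4, of the trans-Golgi network, had 446, 376 and 372 counts and 525, 443 and 520 counts (log2 fold change 0.40, SE 0.08, adjusted p 0.00755). In shares of the summed Vamp level per length, Vamp5 went from 30.9% to 22.5%, Vamp8 from 30.6% to 24.4% and Vamp3 from 22.7% to 34.1%. Vamp1 and Vamp2 did not pass.

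The Munc18-type proteins and tomosyns were mostly counted well, with a low member in Stxbp5l. Stxbp5l, the tomosyn paralog that holds back SNARE assembly, had 24, 18 and 24 counts in the control libraries and 0, 0 and 5 in the knockout libraries. No read was counted in 2 of the knockout libraries, a result that allows up to 3 counts in each. The summed normalized counts were 12.4 times higher in the control, with an exact 95% interval of 5.07 to 39.5 for counting error only, and the adjusted p was 0.0145. The call was lost in 3 of 13 alternatives that tested it, without Pa1F/F replicate 1 (0.0502), without Pa1F/F replicate 3 (0.0531) and with alike libraries summed (0.124).

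Stxbp2, or Munc18-2, had the highest level per length of the Munc18-type proteins and tomosyns, 17.1 ± 0.532 CPM per kilobase in the control and 20.3 ± 1.04 in the knockout. Its log2 fold change was 0.25 (SE 0.06, adjusted p 0.0193), and it passed in 9 of 14 alternatives. The libraries whose removal ended its pass were Pa1F/F replicates 1 and 3 (0.0731 and 0.0761) and Amh-pa1-/- replicates 1 and 2 (0.067 and 0.0619), and with alike libraries summed the adjusted p was 0.176. Stxbp5 was also higher by adjusted p, and Stxbp3, Stxbp4 and Stxbp6 did not pass. Cplx2, the one tested complexin, clamps and triggers assembled SNAREs. It had 286, 204 and 272 counts in the control and 488, 411 and 366 in the knockout libraries, without overlap, with a log2 fold change of 0.82 (SE 0.17, adjusted p 0.0102).

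Priming and active zone proteins moved in both directions. Of 12 members 10 were tested, with 3 lower and 3 higher at both thresholds (background 6.56% and 5.44% of all tested genes). Bsn (chr9:108096022-108190384), the Bassoon scaffold of the active zone, had 274, 280 and 250 counts in the control and 90, 101 and 61 in the knockout libraries, and all knockout libraries were well below. The normalized level went from 261 ± 11.5 to 87.6 ± 26.3 (SD, n = 3), a log2 fold change of -1.58 (SE 0.21, adjusted p 0.00226) that was called under all 14 alternatives. A transcript inside its span on the other strand, 4930447F24Rik, had a log2 fold change of -1.55 and shares no exon bases with Bsn.

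Pclo, or Piccolo, the paralogous scaffold, had 17, 4 and 16 counts in the control and 50, 47 and 26 in the knockout libraries. Pa1F/F replicate 2 was lowest and Amh-pa1-/- replicate 3 nearest to the control. Its log2 fold change was 1.82 (SE 0.51, adjusted p 0.0314), opposite in sign to that of Bsn. It was kept in 7 of 13 alternatives that tested it, and was lost, among others, without Pa1F/F replicate 1 (0.0718), Pa1F/F replicate 3 (0.0597), Amh-pa1-/- replicate 1 (0.0898) or Amh-pa1-/- replicate 2 (0.0906) and with alike libraries summed (0.157).

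Unc13b, or Munc13-2, the vesicle priming factor with the highest level per length here, had 4625, 3767 and 3800 counts against 2591, 2283 and 2630. The groups were widely separated, and its log2 fold change of -0.61 (SE 0.06, adjusted p 0.00088) passed adjusted p in all 14 alternatives. Unc13c, or Munc13-3, known from the cerebellum, went the other way from low counts, 10, 13 and 12 in the control and 41, 52 and 27 in the knockout (log2 fold change 1.86, SE 0.36, adjusted p 0.00786). Unc13d, the Munc13 of secretory lysosomes, did not pass, and neither did Unc13a, whose exons share 2758 bases with Colgalt1.

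Rims3 and Rims4, short RIM proteins that keep the C-terminal C2 domain, moved in opposite directions. Rims3 had 18, 12 and 13 counts in the control and 34, 33 and 30 in the knockout libraries (log2 fold change 1.26, SE 0.24, adjusted p 0.00756). Rims4 had 35, 23 and 34 counts and then 6, 8 and 15 (log2 fold change -1.57, SE 0.38, adjusted p 0.0195). Rimbp2, which links RIM to calcium channels, had 48, 39 and 16 counts and 4, 11 and 11 counts (log2 fold change -1.85, SE 0.51, adjusted p 0.0298). Its groups did not overlap, though Pa1F/F replicate 3 was close to the knockout. Of 13 alternatives that tested it, Rims4 lost its call in 5, without Pa1F/F replicate 1 (0.068) or 3 (0.0715) or Amh-pa1-/- replicate 1 (0.0593) or 2 (0.0679) and with alike libraries summed (0.144). Rimbp2 lost it in 5 of 13, among them without Pa1F/F replicate 1 (0.102) or 2 (0.0759) or Amh-pa1-/- replicate 1 (0.0796) or 2 (0.0557).

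**Figure D3:**
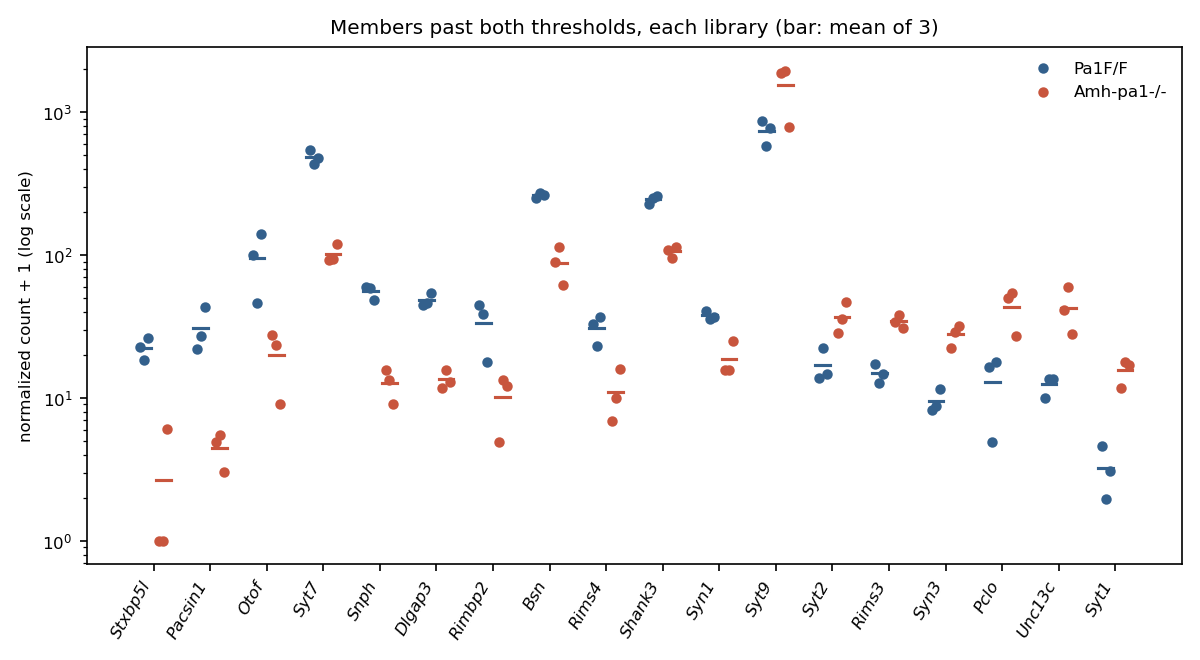
Normalized counts plus 1 (log scale) of 18 of the 19 members past both thresholds in each library, with bars at the mean of 3. Syt7, Bsn and Shank3 have means from 246 to 486 in the control and no overlap, while Syt9 overlaps through Amh-pa1-/- replicate 3.

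Of the 7 vesicle-bound and other presynaptic members 6 were tested, and each passed adjusted p, 4 lower and 2 higher. Of all tested genes 17.1% were lower and 18.2% higher by adjusted p. Snph (chr2:151590549-151632593), whose promoter is shown above, had 65, 60 and 45 counts in the control and 15, 11 and 8 in the knockout libraries, 4.65-fold lower with a log2 fold change of -2.22 (SE 0.27, adjusted p 0.00151). Pacsin1, a membrane-bending partner of dynamin in neurons, had 23, 27 and 40 counts and then 4, 4 and 2 (log2 fold change -3.05, SE 0.45, adjusted p 0.00295). Neither gene's groups overlapped, and both calls were kept in all 13 alternatives that tested them.

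Otof, the calcium sensor otoferlin of inner hair cells, had 110, 47 and 133 counts in the control and 27, 20 and 8 in the knockout libraries. Pa1F/F replicate 2 was low yet still above each knockout library. Its log2 fold change was -2.32 (SE 0.54, adjusted p 0.0161), and the call was lost in 4 of 13 alternatives that tested it, among them without Pa1F/F replicate 1 (0.0539) or Pa1F/F replicate 3 (0.0557) and with alike libraries summed (0.115).

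The 3 synapsins, which tether vesicles to actin and to each other, differed in direction. Syn1 had 44, 36 and 34 counts in the control and 15, 13 and 24 in the knockout libraries (log2 fold change -1.04, SE 0.26, adjusted p 0.0226). Syn2 had 112, 126 and 98 counts and 163, 148 and 158 counts (log2 fold change 0.57, SE 0.12, adjusted p 0.0132). Syn3 had 8, 8 and 10 counts and 22, 25 and 31 counts (log2 fold change 1.66, SE 0.29, adjusted p 0.00563). None of the 3 had overlapping groups.

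The synapsins share loci with metalloproteinase inhibitor genes on the opposite strand. Timp1 lies within the Syn1 span with no shared exon bases, had 9940 to 26411 counts and a log2 fold change of -1.09. Timp3 shares 1734 exon bases with Syn3, had 4462 to 9445 counts and a log2 fold change of -0.45 (adjusted p 0.0839), opposite in sign to Syn3. Araf shares 23 exon bases with Syn1, or 0.556% of its exon length, and had a log2 fold change of -0.12. Timp4 overlaps Syn2 and had at most 11 counts. Whether reads of these neighbours entered the synapsin counts was not tested. Syn1 held its call in 8 of 14 alternatives and lost it, among others, without Pa1F/F replicate 1 (0.0825) or 3 (0.0666) or Amh-pa1-/- replicate 1 (0.0803) or 2 (0.0808) or with alike libraries summed (0.17). Syn2 missed adjusted p in 3 of 14, without Pa1F/F replicate 1 (0.0534) or 3 (0.0548) and with alike libraries summed (0.129).

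Of 7 postsynaptic scaffolds 6 were tested and 2 were lower at both thresholds (background 6.56% of all tested genes). Shank3 (chr15:89499623-89560261), the scaffold that joins glutamate receptors to actin in neurons, had 252, 258 and 247 counts in the control and 111, 84 and 113 in the knockout libraries. Both groups were tight and apart, at 246 ± 15.8 and 105 ± 9.64 normalized counts (SD, n = 3), with a log2 fold change of -1.22 (SE 0.12, adjusted p 0.000687). Dlgap3 (chr4:127169204-127237022), which binds Shank proteins, had 48, 47 and 51 counts and 11, 13 and 12 counts, a log2 fold change of -1.92 (SE 0.23, adjusted p 0.0014). Shank3 and Dlgap3 were called under all 14 alternatives.

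Dlgap4, the paralog with the highest level per length, had 5292, 4621 and 4379 counts against 3991, 3581 and 2444, and its log2 fold change of -0.42 did not pass (SE 0.18, adjusted p 0.114). The value rested on Amh-pa1-/- replicate 3, without which the log2 fold change was -0.22 with an adjusted p of 0.0079. Shank1, Shank2 and Dlgap1 did not pass.

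**Figure D4:**
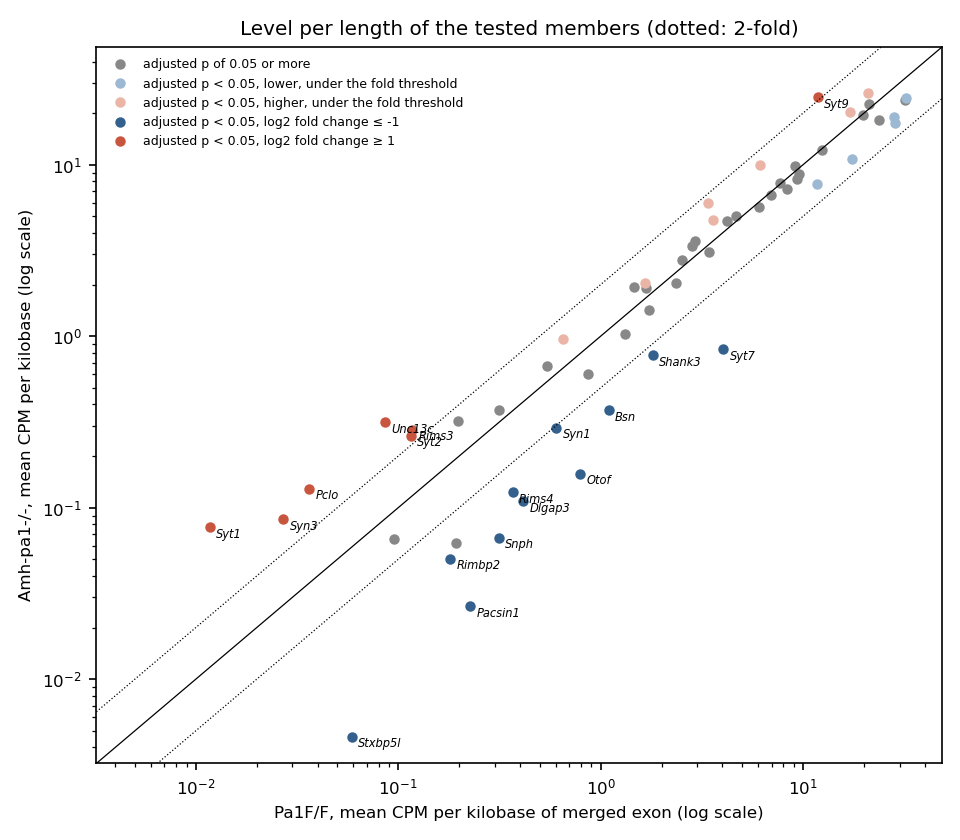
Mean level per length (CPM per kilobase of merged exon, log scales) of 59 tested members in Pa1F/F on the horizontal and Amh-pa1-/- on the vertical axis, with dotted lines at 2-fold. Most members past both thresholds lie in the lower range, and Syt9 is the one called member above 10 CPM per kilobase in both genotypes.

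**Figure D5:**
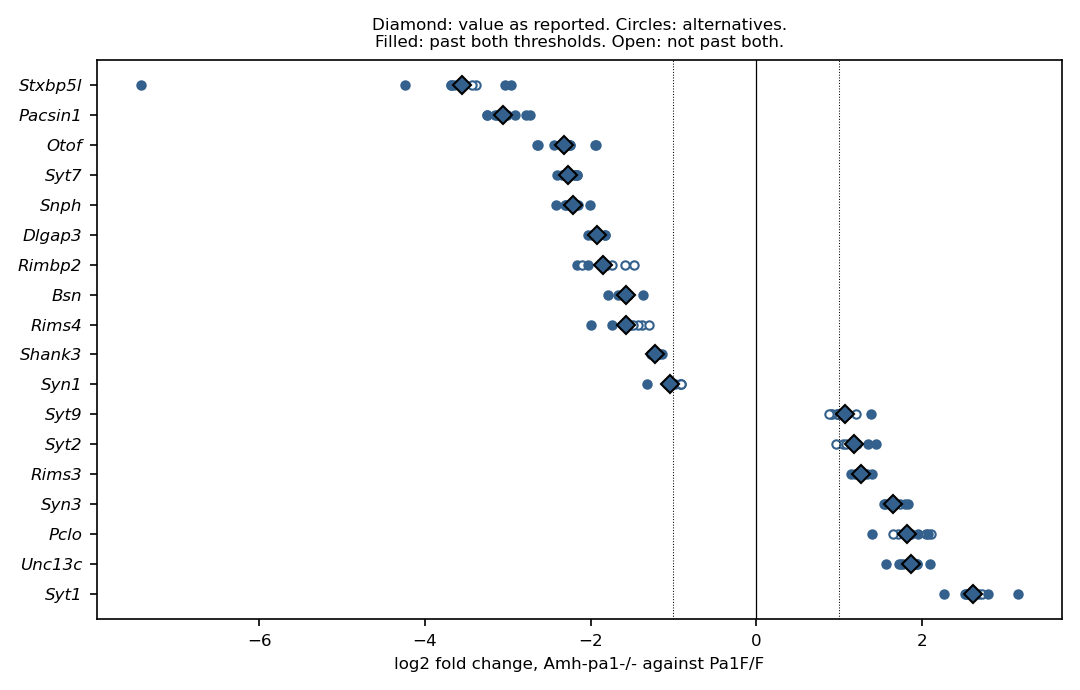
Log2 fold change of 18 of the 19 members past both thresholds (diamond) and under each of the alternatives that tested them (circles, filled where still past both thresholds). No member shown changed sign, Syt7, Bsn, Shank3 and Dlgap3 keep filled circles throughout, and the Stxbp5l value at -7.43 is the fit without Amh-pa1-/- replicate 3, where the knockout counts are all 0.

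A list of 109 further genes of vesicle traffic and synaptic structure, 91 of them tested, was set beside the members. In the knockout 2 were lower (2.20%) and 6 higher (6.59%) at both thresholds, against 6.56% and 5.44% of all tested genes, and by adjusted p alone 15 were lower (16.5%) and 17 higher (18.7%), near the 17.1% and 18.2% of all tested genes. Doc2b, a calcium sensor with paired C2 domains, had 210, 265 and 208 counts and 34, 22 and 47 counts (log2 fold change -2.65, adjusted p 0.000594). Sytl3, a Rab27 effector, had 89, 68 and 107 counts and 21, 6 and 8 counts (log2 fold change -2.84, adjusted p 0.00336).

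Erc2, a binding partner of RIM and Bassoon, was higher with 35, 41 and 27 counts against 186, 149 and 149 (log2 fold change 2.32, adjusted p 0.000303). Synpr, or synaptoporin of the vesicle membrane, had 23, 17 and 22 counts and 411, 363 and 149 counts (log2 fold change 3.98, adjusted p 0.00109). The other higher genes were Cadps, which primes dense-core vesicles (1.36), Rph3al, a Rab effector (1.38), Sh3gl2, or endophilin A1 (1.45), and Dlg2, a postsynaptic scaffold (1.57), in log2 fold change. Of the exocyst and the other SNAREs, 12 tested genes each, 1 exocyst gene was lower and 3 were higher by adjusted p, and 2 SNAREs were lower and 1 was higher. Of all tested genes 17.1% were lower and 18.2% higher by that measure.

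Since many members are best known from neurons, neuronal and glial markers were counted in the same libraries. Of 14 neuronal and neuroendocrine markers 13 were listed and 5 tested, with 1 higher at both thresholds, Nefl (log2 fold change 1.85). Their summed level was 483 to 570 CPM in control and 476 to 629 CPM in knockout libraries, and most of it was Tubb3, a tubulin also made outside neurons. Nefm had 388, 218 and 280 counts in the control and 390, 345 and 656 in the knockout libraries. Its log2 fold change of 0.74 did not pass (adjusted p 0.0749 by edgeR). In normalized counts Chgb and Elavl4 were higher and Chga and Rbfox3 lower without overlap, all with at most 16 counts in any library. Dbh, Elavl3, Stmn2, Gap43 and Scg2 had at most 2 counts in any library. Of 6 Schwann cell markers 4 were tested and 2 were lower, with a summed level of 35.8 to 37.7 CPM and 17.2 to 22.4 CPM. Cdh19 had 281, 206 and 225 counts and then 48, 18 and 12, while the defining Sox10 had at most 8. In bulk libraries fewer cells of a type and less RNA per cell cannot be told apart.

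Markers of other testis cells also moved with genotype. Of 11 macrophage markers 9 were tested and 7 lower (125 to 138 CPM in control, 75.6 to 93.5 CPM in knockout). Most of that sum was Mrc1, which did not pass, with means of 984 and 1109 normalized counts. Of 7 Leydig markers 3 were tested and 3 lower (794 to 911 and 165 to 288 CPM). Most of the Leydig sum was Star, with means of 7911 and 2628 normalized counts, and Cyp11a1, with 4386 and 364. Insl3, Cyp17a1, Hsd3b6 and Lhcgr had at most 15 counts in any library. Of 7 spermatogonial markers 3 were tested and 3 lower (4.35 to 7.63 and 1.99 to 4.97 CPM). Of 6 endothelial markers 3 were tested and 1 lower (116 to 121 and 62.1 to 99.96 CPM). The 4 mesothelial markers had 3 higher (4.48 to 7.39 and 26.0 to 34.4 CPM), and of 5 peritubular myoid markers 4 were tested and 1, Acta2, was higher (214 to 272 and 825 to 1218 CPM). Most of that sum was Acta2, with 2537 to 3239 normalized counts in the control and 11886 to 15383 in the knockout libraries. Cnn1, Myh11 and Des did not pass, and Myh11 and Des lay below every control library in Amh-pa1-/- replicates 1 and 2 and above every control library in replicate 3. Of 11 spermatocyte and spermatid markers 8 were listed and 2 tested, Sycp3 and Spaca1, with log2 fold changes of 0.01 and -0.14 that did not pass (8.26 to 9.15 and 7.50 to 8.72 CPM). Of 12 Sertoli markers 10 were tested and 1 was lower at both thresholds (16671 to 16914 and 9981 to 12825 CPM), a sum that is mostly Clu, with means of 193368 and 119830 normalized counts. The part of these cells in the changes of the members was not tested.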

How the data were processed

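RNA-seq was available from 3 Pa1F/F and 3 Amh-pa1-/- libraries of Sertoli cells. Per the study's methods, libraries were made with a NEBNext Ultra kit, and HISAT2 2.1.0 was used by the authors for alignment to GRCm38, and reads were counted per gene with HTSeq 0.6.0, versions as in the submitters' processing notes. The strand setting is not given in the sources used here. The deposited counts are whole numbers without normalization. The same table holds the authors' own comparison (mean, fold change, p-values), which was not used, and 0 columns of counts were without a sample.

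Counts were filtered with filterByExpr (minimum 10, total 15), scaled by TMM (factors 0.990 to 1.03) and tested with edgeR 4.0.16 (quasi-likelihood F-test, no covariates) in R 4.3.3, with Benjamini-Hochberg adjustment over 14919 genes and thresholds of 0.05 and 1 (log2). The study's methods name DEGseq with the same thresholds. The SE is the absolute log2 fold change over the square root of F. The fit was tested on simulated data. Levels per length used merged exons of GENCODE vM39, matched by Ensembl ID (77 of 77 members, 27251 of 28262 genes), as lengths only. Exon sharing was read from the same annotation. Reads are not molecules, so intervals and floors (3 counts) cover counting error only. The alternatives were size factors of DESeq2 1.42.0, no normalization factors, DESeq2's Wald test, limma-voom 3.58.1, 2 other filters, a replicate block, summed close pairs and leaving out each library.

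Named are members past both thresholds, the 10 largest past adjusted p alone, the member with the highest level per length of each role in either genotype, and listed pathway genes past both thresholds. Syt13 and other members outside that rule, and markers and overlapping genes given with values, were chosen after their values were seen. Members and lists were chosen with earlier results of these data known. Pa1 was not analysed here, and some members that meet the rule are not reported by name or drawn. Cell markers covered Sertoli, neuronal, Schwann, spermatogonial, spermatocyte and spermatid, macrophage, Leydig, myoid, endothelial and mesothelial cells.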

Additional observations from a re-analysis of the deposited data

How the results depend on the processing

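Across 14 alternatives no named member changed sign in a called value, and of 481 values of single members 403 kept their side of the threshold, 76 fell short of it and 2 newly passed. The counts of 12 lower and 7 higher members at both thresholds, and of 17 lower and 15 higher by adjusted p alone, stayed within 1.5 times under limma-voom, DESeq2's Wald test, its size factors, library sizes alone and no filter. With at least 10 counts in every library they were 6 (12.0%, against 5.01% of all genes) and 3 (6.0% against 4.53%), among fewer members tested. By adjusted p 11 were lower there (22.0% against 17.5%). With the 2 most alike libraries of each genotype summed (Pa1F/F replicates 1 and 3, Amh-pa1-/- replicates 1 and 2), which leaves 2 libraries a genotype, edgeR called 7 lower (10.8%, against 2.85% of all genes) and 0 higher (2.68% of all genes) at both thresholds and 10 lower (15.4% against 4.22%) and 0 higher (4.43% of all genes) by adjusted p, while 16 were lower and 13 higher at an unadjusted p under 0.05.

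With the replicate number as a replicate block, 8 members were lower (13.1%, against 5.64% of all genes) and 4 higher (6.56% against 4.8%) at both thresholds, and 13 (21.3% against 12.6%) and 11 (18% against 12.8%) by adjusted p. Same-numbered libraries correlated at 0.108, -0.164 and -0.179 in their deviations, and all pairs of a control and a knockout library from -0.179 to 0.214. These values show no pairing by number, but with 3 libraries a genotype they cannot exclude it. Without single libraries, 7 to 14 members were lower at both thresholds (11.1% to 22.2%, against 5.24% to 7.92% of all genes). At the same thresholds 4 to 6 were higher (6.35% to 9.68% against 4.41% to 5.6%). By adjusted p 12 to 23 were lower (19.0% to 36.5% against 11.1% to 21.2%). By the same measure 8 to 15 were higher (12.7% to 24.2% against 11.5% to 21.9%). The 8 higher were without Pa1F/F replicate 3, near the 11.5% of all genes there. The median log2 fold change ranged from -0.068 to 0.0084. That median, -0.05 as reported, was 0.026 under DESeq2's Wald test, 0.046 with no filter and -0.011 with 10 counts in every library, shifts larger than its SD between replicates of 0.031, with other members tested in each case.

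Depth limits the members with low counts, where single reads move a fold, and the filter on low counts left out 16 members.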
